A study of Drosophila melanogaster with 93 samples.

Results

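The 5 genes described here are *tup*, *Lim3*, *ap*, *Awh* and *Lim1*, LIM-homeobox genes of *Drosophila melanogaster* that are known for setting the identity of neurons. They were chosen by gene family, under a rule that uses no measured value, but with earlier results of these data known. They are 5 of the 18164 annotated genes on chromosomes 2L, 2R, 3L, 3R, 4 and X, and 4 of them are autosomal while *Lim1* is on the X. For each gene the percent of the gene body, and of the 3 kb on each side of its transcription start site (TSS), that lay under called peaks was measured in each of 31 H3K9me3 peak lists.

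The lists came from sequential chromatin immunoprecipitation, in which sheared chromatin was first bound with an H3K9me3 antibody and the eluate was then captured on streptavidin. The flies carried *UAS-Gal4* and *UAS-Chromatag*, a transgene for a biotin-tagged H2B histone and the birA ligase. One of a pair of drivers, *fru P1-Gal4*, which is active in the neurons that express the sex-specific *fru P1* transcripts, or *elav-Gal4*, which is active in neurons in general, turned the transgene on, so the lists stand for driver-expressing cells and not for LIM-homeobox-expressing neurons. The *fru P1* lists were made at 3 stages in each sex, from mid-pupae aged 48 hours past puparium formation (written 48hr APF), from adults of 1 day and from adults of 10-12 days. The *elav* lists were made from 1-day females and males. Every group had 4 replicates, except *fru P1* 10-12 day females with 3. Replicates were independent collections of flies. The 48hr APF chromatin was from whole pupae and the adult chromatin was from heads, so stage and the material used cannot be told apart in comparisons with 48hr APF.

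The 23 *fru P1* lists rested on 2119672 to 6306013 tags and held 20262 to 28267 peaks. The lowest depth was that of 10-12 day male replicate 1, and every other *fru P1* list had at least 3856798 tags. The 8 *elav* lists rested on 2295291 to 3012794 tags and held 18036 to 27458 peaks. Peaks of *elav* male replicate 3 were called with a fragment length of 140 bp, and those of every other list with 200 bp. Every *fru P1* list was called against a pooled input of 41654025 to 55285173 tags, and each *elav* list against the input of its own replicate, of 9951738 to 19100490 tags. The 1-day *fru P1* lists, which are set against *elav*, rested on 3856798 to 6306013 tags, above every *elav* list. The driver therefore cannot be told apart from the depth of the lists or of the input. Mean autosomal coverage by peaks ranged over the 8 groups from 22.3 to 32.8%, with 1-day *fru P1* lists the highest. Mean X coverage was 22.4 to 28.9% in the 4 female groups and 2.14 to 5.37% in the 4 male groups.

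LIM-homeobox proteins pair a DNA-binding homeodomain with LIM domains that bind partner proteins, and the combination of LIM-homeobox genes that a neuron expresses is known to specify its subtype, its transmitter and the path of its axon. They work with the adaptor Chip, encoded by *Chi*, which bridges LIM-homeodomain proteins. H3K9me3 is the histone mark bound by Heterochromatin Protein 1, and it is best known from pericentric heterochromatin and silenced transposable elements. A peak in these lists marks tagged chromatin that was recovered above the input, and coverage says how much of a gene such regions spanned, not how strong the mark was.

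*tup* (FBgn0003896), the fly islet gene, acts in motor neurons and in dopaminergic and serotonergic neurons. It lies on 2L from 18859507 to 18881261 on the minus strand (dm6) and is 21.755 kb long. *Lim3* (FBgn0002023), which acts with *tup* in motor neurons that innervate ventral muscles, lies on 2L from 19079256 to 19108427 on the minus strand and is 29.172 kb long. *ap* (FBgn0267978), apterous, is the selector gene of the dorsal wing compartment and is also required in neuropeptidergic interneurons; it lies on 2R from 5706202 to 5727525 on the minus strand and is 21.324 kb long. *Awh* (FBgn0013751), Arrowhead, is needed for abdominal histoblasts and imaginal cells of the salivary gland, and it lies on 3L from 3846206 to 3861692 on the plus strand over 15.487 kb. *Lim1* (FBgn0026411), which acts in distal leg and antennal development and in subsets of interneurons, lies on the X from 8756539 to 8805804 on the minus strand and is 49.266 kb long.

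The intronic 300 bases that lay most often under peaks are printed for 4 of these genes, in dm6 on the strand of the gene, because they show where in each locus the peaks recurred. Capitals mark the letters TAATTA, a core that many homeodomain proteins bind, searched on both strands, where it reads the same. Of 445433 windows of 300 bases over the chromosomes named above, 17.9% held TAATTA.

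Awh chr3L:3859385-3859684: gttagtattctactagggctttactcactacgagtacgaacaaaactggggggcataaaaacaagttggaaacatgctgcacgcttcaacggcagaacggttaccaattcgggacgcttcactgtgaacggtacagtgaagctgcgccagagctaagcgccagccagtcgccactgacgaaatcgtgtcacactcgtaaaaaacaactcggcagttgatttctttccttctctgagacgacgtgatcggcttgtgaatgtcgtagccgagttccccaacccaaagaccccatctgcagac
Lim1 chrX:8798506-8798805: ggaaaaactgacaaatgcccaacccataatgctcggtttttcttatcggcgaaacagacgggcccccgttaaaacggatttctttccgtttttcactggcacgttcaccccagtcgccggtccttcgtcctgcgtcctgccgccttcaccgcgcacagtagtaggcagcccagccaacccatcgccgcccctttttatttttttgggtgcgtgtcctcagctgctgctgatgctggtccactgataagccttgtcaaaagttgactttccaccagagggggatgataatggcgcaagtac
Lim3 chr2L:19091428-19091727: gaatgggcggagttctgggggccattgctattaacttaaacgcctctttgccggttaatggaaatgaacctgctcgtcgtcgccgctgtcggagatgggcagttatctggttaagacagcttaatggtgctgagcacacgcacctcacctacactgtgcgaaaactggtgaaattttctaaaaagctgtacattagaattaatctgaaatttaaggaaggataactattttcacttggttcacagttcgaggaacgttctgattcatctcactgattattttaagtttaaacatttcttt
tup chr2L:18875592-18875891: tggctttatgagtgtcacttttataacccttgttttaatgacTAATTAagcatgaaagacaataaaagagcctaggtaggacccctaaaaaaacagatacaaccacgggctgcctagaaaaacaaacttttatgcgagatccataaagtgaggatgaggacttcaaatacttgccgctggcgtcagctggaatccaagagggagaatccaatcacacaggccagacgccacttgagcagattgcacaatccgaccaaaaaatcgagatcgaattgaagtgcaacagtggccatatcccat

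The *Awh* stretch, 13.3 kb into the gene, lay whole under a peak in 28 of 31 lists. The *Lim1* stretch, 7.15 kb from the TSS, lay whole under a peak in all 15 female lists, and it is the start of a 377 bp run, X:8798506-8798882, that all 15 shared. The *Lim3* stretch, 16.8 kb from the TSS, lay whole under peaks in 23 lists and was touched in 28. The *tup* stretch, 5.52 kb from the TSS, lay whole under peaks in 21 lists and was touched in 25. Of the 4 stretches, that of *tup* held TAATTA once and the other 3 did not hold these letters. Their GC content was 50.3% in *Awh*, 53.7% in *Lim1*, 41.7% in *Lim3* and 43.0% in *tup*, beside a median of 42% over all windows. No sequence is shown for *ap*.

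Each of the 5 genes overlapped a peak in 31 of 31 lists. Most long genes met peaks too: of genes of at least 5 kb, 2917 of 2932 autosomal and 667 of 673 X-linked ones had a peak in at least 4 lists. Over 31 lists, mean gene body coverage was 55.4% ± 20.5 (SD, n = 31) for *Awh*, 53.4% ± 17.6 for *tup*, 53.0% ± 16.7 for *Lim3* and 29.1% ± 10.0 for *ap*. *ap* was the lowest of the 4 autosomal genes in 28 of 31 lists and the highest in 0. *Awh*, *tup* and *Lim3* did not separate, since their mean differences of 0.37 to 2.37 percentage points were small against the SDs of those differences, 11.3 to 15.2. *Awh* was highest in 13 lists, and *Lim3* and *tup* in 9 each. *Lim1* had 58.0% ± 19.6 in the 15 female lists and 10.2% ± 9.0 in the 16 male lists. At least 10% of the gene body was covered in 31 lists for *Awh*, *Lim3* and *tup*, in 30 for *ap*, and for *Lim1* in all 15 female lists and 6 male lists. Among autosomal genes of at least 5 kb, the group means of *ap* stood at percentiles 24.8 to 64.1 in *fru P1* and 83.6 and 83.9 in *elav*. Those of *Awh*, *Lim3* and *tup* stood at 68.4 to 96.7 in *fru P1* and 95.5 to 98.9 in *elav*. Among such X-linked genes *Lim1* stood at 93.2 to 99.6 in female groups and 55.3 to 94.7 in male groups.

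**Figure D1:**
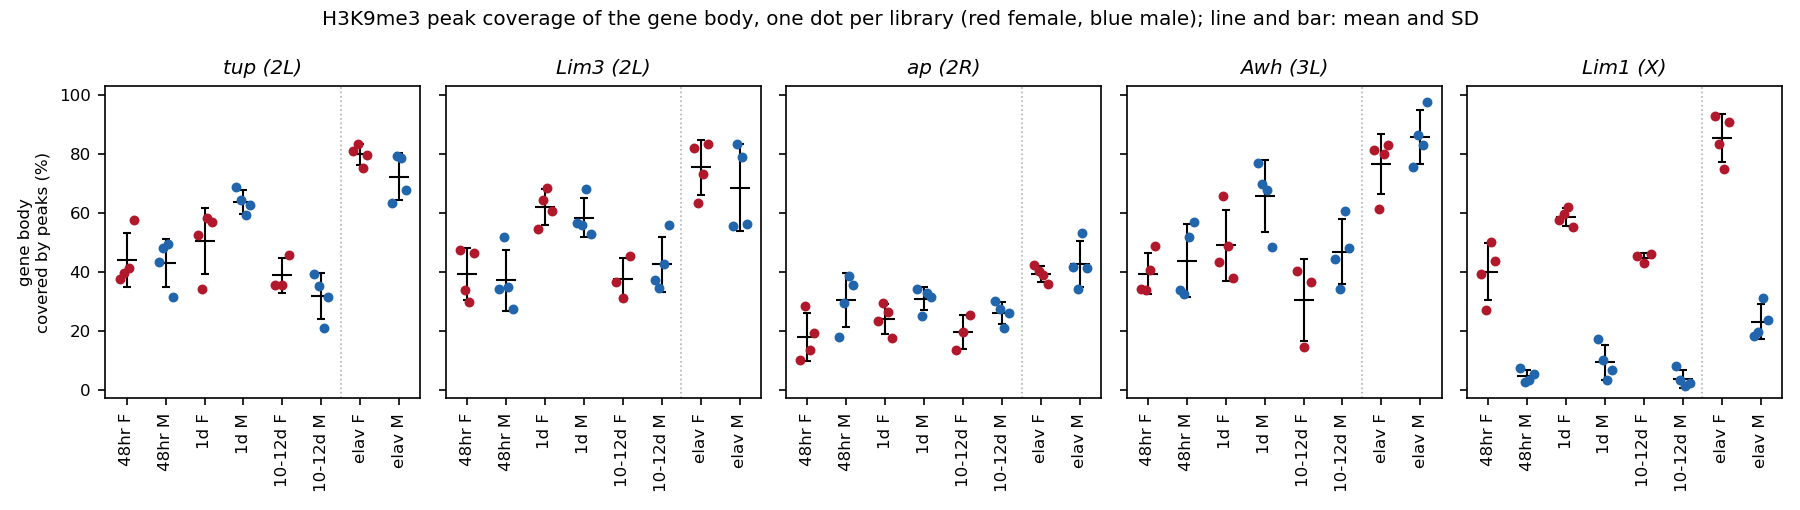
Percent of the gene body under H3K9me3 peaks in each of the 31 lists (vertical axis, percent), by group and sex, with 1 panel for each of the 5 genes; points are replicates and bars are group means with SD. The 4 *elav* female values of *Lim1* sit between 74.8 and 92.9%, above the *elav* male values of 18.3 to 31.1%.

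The X-linked *Lim1* differed more between the sexes than any of the other 4 genes, and it was lower in males than in females in all 4 sex comparisons. At 48hr APF its gene body coverage was 39.1, 27.1, 49.9 and 43.8% in females and 7.3, 2.6, 3.2 and 5.3% in males. In 1-day *fru P1* adults it was 57.5, 59.5, 62.1 and 55.0% in females and 17.1, 10.1, 3.1 and 6.7% in males. The groups did not overlap at either stage. In 10-12 day adults coverage was 45.2, 42.8 and 46.1% in females and 8.2, 3.3, 1.3 and 2.3% in males. In *elav* lists it was 92.9, 83.4, 74.8 and 90.7% in females and 18.3, 19.5, 31.1 and 23.6% in males. Here too the highest male list lay below the lowest female list.

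The male minus female difference for *Lim1* was -35.4 percentage points at 48hr APF (limma SE 6.51, adjusted p = 0.00161), -49.3 at 1 day (SE 6.51, adjusted p = 3.98e-05), -41.0 at 10-12 days (SE 7.04, adjusted p = 0.000955) and -62.3 in *elav* (SE 6.51, adjusted p = 3.87e-06). limma was fitted over all 16276 genes with a peak in at least 4 lists, with Benjamini-Hochberg adjustment over those genes and calls made at 0.05. In each of the 4 comparisons the exact two-sided permutation test gave p = 0.0286, the smallest value that 4 against 4 or 3 against 4 lists allow. Of 2298 X-linked genes tested, limma called 11.7% lower in males at 48hr APF, 24.3% at 1 day, 24.4% at 10-12 days and 8.7% in *elav*, so a call for an X-linked gene was common. By the unadjusted exact test, 59.7, 61.8, 66.7 and 41.7% of the 667 X-linked genes of at least 5 kb were lower in males in the same comparisons.

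Set beside the whole X, the share of female coverage that *Lim1* kept in males was closest to that of the chromosome at 1 day and furthest from it at 10-12 days. Male coverage of *Lim1* was 11.6% of female coverage at 48hr APF, 15.8% at 1 day, 8.39% at 10-12 days and 27.0% in *elav*. For the whole X these shares were 9.54, 15.3, 14.1 and 23.8%. The ratio of *Lim1* to X coverage was 1.81 ± 0.51 in females and 3.6 ± 3.6 in males at 48hr APF, 2.03 ± 0.19 and 2.18 ± 1.22 at 1 day, 1.85 ± 0.28 and 1.07 ± 0.64 at 10-12 days, and 3.81 ± 0.53 and 4.36 ± 0.72 in *elav* (SD). The exact permutation test of that ratio between sexes gave p = 0.457, 0.914, 0.114 and 0.314, so a difference of *Lim1* from its chromosome was not shown. With so few lists and such spreads, the test cannot show that the gene and the chromosome fell alike.

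On the percentage point scale the picture depended on the group. After the mean of its chromosome class was subtracted from every gene in every list, the sex difference of *Lim1* was -18.5 at 48hr APF (limma adjusted p = 0.60), -26.7 at 1 day (adjusted p = 0.15), -17.1 at 10-12 days (adjusted p = 0.498) and -49.4 in *elav* (adjusted p = 0.00255), so of the 4 calls that in *elav* was left. In *elav*, the drop of 62.3 points was larger than that of each of the other X-linked genes of at least 5 kb, whose median difference was -9.74. The female level, which bounds any drop, was 85.4% for *Lim1* in *elav* against a class mean of 18.3%, at percentile 99.6 of its class. The part of this level in the size of the drop was not tested. In proportion, *Lim1* kept 27.0% of female coverage in *elav* males, and the whole X kept 23.8%. Males carry a single X, and the lists were called against input from the same sex. The paper reports that very few peaks could be called on the male X, although DNA from it was recovered and sequenced. Other settings and another caller added few, and the paper speculates that the chromatin of the dosage-compensated male X makes calling difficult. Low male coverage of *Lim1* is therefore not a measure of how much H3K9me3 it carried. The parts of X copy number and of peak calling in the difference were not tested.

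**Figure D2:**
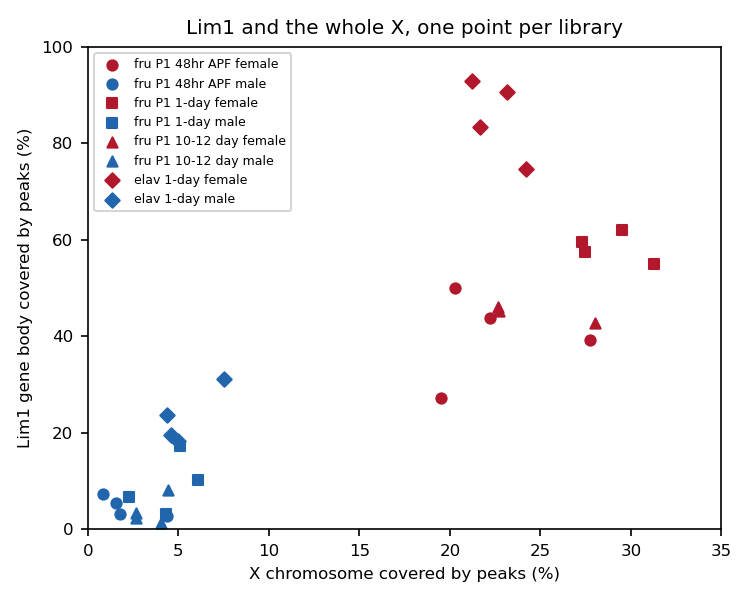
*Lim1* gene body coverage against coverage of the whole X in each list (both axes in percent), with females and males in different colours and the groups in different symbols. Male lists gather near the origin and *elav* female lists sit at the top, where *Lim1* had 85.4% and the X 22.6% on average.

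For the 4 autosomal genes no sex difference in the gene body was called by limma in 16 comparisons, with 0 at an unadjusted p under 0.05 and 1 by the exact test. Over all autosomal genes limma called 0.243% in either direction at 48hr APF, 0.458% at 1 day, 0.88% at 10-12 days and 0.093% in *elav*. The 1 by the exact test was *tup* in 1-day *fru P1* adults, at 52.5, 34.2, 58.1 and 57.0% in females and 68.7, 64.5, 59.1 and 62.5% in males. The groups did not overlap, and the difference was 13.2 points (SE 8.03, limma adjusted p = 0.605, exact p = 0.0286), in a comparison where 3.84% of the 2917 autosomal genes of at least 5 kb had such an exact p. In the other 3 comparisons these shares were 2.71, 3.77 and 2.37%. The direction was not shared by the other groups, where *tup* differed by -0.98, -7.12 and -7.53 points. *Awh* was higher in males by 4.48, 16.8, 16.4 and 9.23 points in the 4 comparisons and *ap* by 12.6, 6.82, 6.49 and 3.33 points, and the groups overlapped every time.

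Between cell types, all 5 genes had higher gene body coverage in *elav* than in *fru P1* lists of 1-day adults, in females and in males, while the median autosomal gene of at least 5 kb was lower. *Lim1* is the gene that limma called. In females it went from 57.5, 59.5, 62.1 and 55.0% in *fru P1* to 92.9, 83.4, 74.8 and 90.7% in *elav*, with no overlap, a difference of 26.9 points (SE 6.51, limma adjusted p = 0.0327, exact p = 0.0286). limma called 2% of all genes in this comparison and 0.609% of X-linked genes as higher in *elav*. The call was lost with the replicate number as a block (adjusted p = 0.0511) and without any 1 of 5 libraries, *fru P1* female replicates 1 and 4 and *elav* female replicates 1, 2 and 4.

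*tup* had 52.5, 34.2, 58.1 and 57.0% in *fru P1* females and 81.1, 83.3, 75.2 and 79.5% in *elav* females. Every *elav* list was above every *fru P1* list, the difference was 29.3 points (SE 8.03) and it missed the threshold narrowly (limma adjusted p = 0.0537, exact p = 0.0286). *ap* rose by the exact test from 23.4, 29.3, 26.3 and 17.4% to 42.4, 40.2, 38.9 and 35.7%, a difference of 15.2 points without overlap (SE 6.52, limma adjusted p = 0.199, exact p = 0.0286). For *Awh* the values were 43.4, 65.7, 48.8 and 37.8% in *fru P1* and 81.4, 61.3, 80.1 and 83.0% in *elav*. The *elav* female replicate 2 of *Awh* fell within the *fru P1* range, and the difference was 27.5 points (SE 9.63, limma adjusted p = 0.12, exact p = 0.0571). *Lim3* had 54.4, 64.3, 68.5 and 60.7% in *fru P1* and 82.0, 63.2, 73.1 and 83.3% in *elav*, a difference of 13.4 points with overlapping groups (SE 8.83, limma adjusted p = 0.437).

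In males the differences had the same sign and were smaller. *Lim1* went from 17.1, 10.1, 3.1 and 6.7% to 18.3, 19.5, 31.1 and 23.6%, and *ap* from 34.2, 25.1, 32.9 and 31.3% to 41.7, 34.3, 53.2 and 41.3%. Both had no overlap, with differences of 13.9 and 11.7 points (exact p = 0.0286 for each, limma adjusted p = 0.375 and 0.466). *Awh* was at 77.0, 69.8, 67.7 and 48.4% in *fru P1* and 75.7, 86.4, 83.1 and 97.5% in *elav*, a difference of 20.0 points, *Lim3* differed by 10.1 and *tup* by 8.55, and these groups overlapped. In males limma called 0.0369% of all genes and 0 of the 5, with 2 at an unadjusted p under 0.05 and 2 by the exact test. The *elav* difference was not shown to differ between the sexes for any of the 5 genes, at -3.26 to -20.8 points male minus female (limma adjusted p = 1 for each).

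The 5 genes stood in the upper part of the distribution of all genes of at least 5 kb. Among the 2917 autosomal genes of at least 5 kb the median *elav* minus *fru P1* difference was -10.7 points in females and -9.86 in males, and among the 667 X-linked genes it was -8.49 and 0. The *elav* difference was larger than that of 94.0% of its class for *ap* in females, 98.5% for *Awh*, 99.3% for *Lim1*, 93.0% for *Lim3* and 98.8% for *tup*. In males these shares were 93.2, 97.4, 95.8, 92.1 and 91.0%. That class holds genes shorter than the 5, which are 15.5 to 49.3 kb long. Among genes of 15 to 50 kb, a class chosen after seeing the data with 883 autosomal and 194 X-linked genes, the shares were 92.1 to 99.0% in females and 91.4 to 97.8% in males. By the exact test, 3 of the 5 genes in females and 2 in males were higher in *elav*, against 4.15% of long autosomal and 2.55% of long X-linked genes in females and 2.54 and 2.1% in males. When limma was fitted on genes of at least 5 kb alone, an alternative chosen after seeing the data, 4 of the 5 genes were called higher in *elav* females (*Lim1* adjusted p = 0.000738, *tup* 0.00245, *Awh* 0.016, *ap* 0.027), where 3.98% of autosomal and 3% of X-linked genes of that length were.

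**Figure D3:**
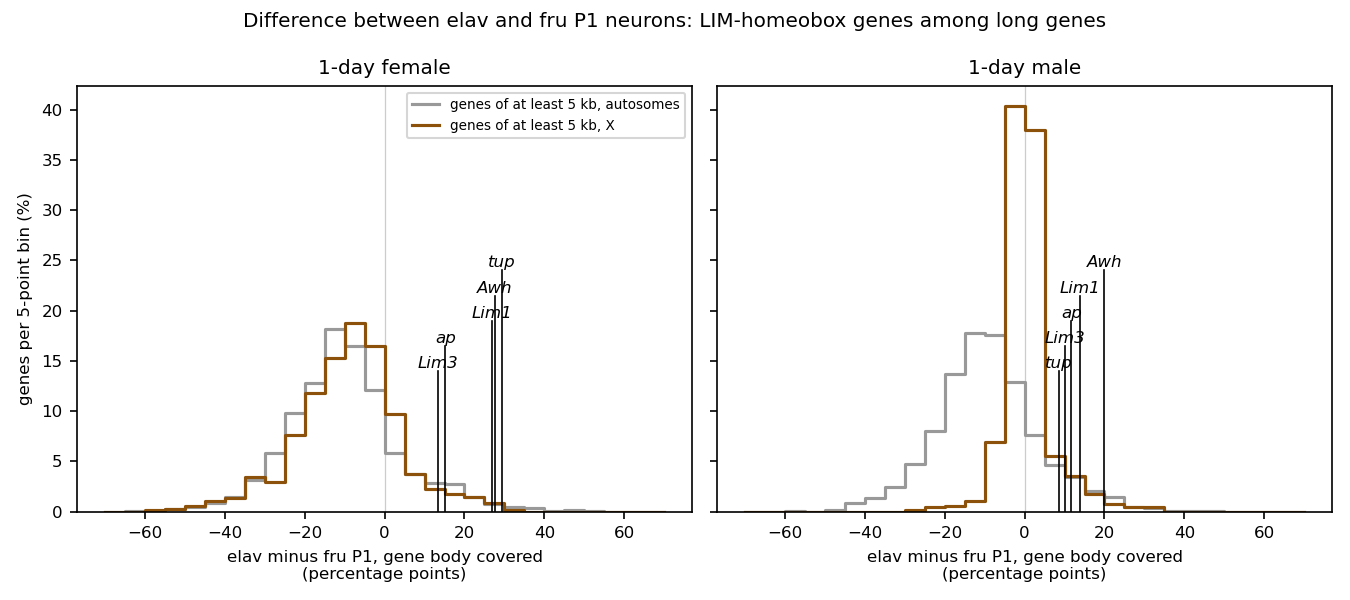
Distribution of the *elav* minus *fru P1* difference in gene body coverage (horizontal axis, percentage points) over genes of at least 5 kb, in females and in males, with lines for the 5 genes. All 5 lines lie to the right of 0 in both panels, while the autosomal medians lie at -10.7 and -9.86.

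Across the stages of *fru P1* neurons, coverage of all 5 genes was higher in 1-day adults than at 48hr APF and lower again in 10-12 day adults, in both sexes. All autosomal coverage moved the same way, with group means of 24.0, 30.9 and 22.3% in females and 25.4, 32.8 and 25.5% in males at the 3 stages. The difference called by limma was *tup* in males between 1 day and 10-12 days. Its values were 43.2, 47.9, 49.6 and 31.4% at 48hr APF, 68.7, 64.5, 59.1 and 62.5% at 1 day, and 39.4, 35.2, 21.0 and 31.4% at 10-12 days. The 1-day lists stood above all others, and the 10-12 day minus 1-day difference was -32.0 points (SE 8.03, limma adjusted p = 0.0446, exact p = 0.0286), in a comparison where limma called 1.4% of all genes and 0.68% of autosomal genes as lower. The call was lost with the replicate block (adjusted p = 0.0672), after division by autosomal coverage (adjusted p = 0.428), after subtraction of the class mean (adjusted p = 0.0715) and when only the compared groups were fitted (adjusted p = 0.267). It was also lost without any 1 of the 8 libraries compared, where the difference was -28.4 to -34.5 points. Leaving out single lists outside the comparison lost it in some cases too, with the difference unchanged at -32.0 points.

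The rise from 48hr APF to 1 day in males was 20.7 points for *tup* (SE 8.03, limma adjusted p = 0.184, exact p = 0.0286). *Lim3*, its partner in motor neurons, had 34.3, 51.9, 34.8 and 27.5% in males at 48hr APF and 56.6, 56.0, 67.9 and 52.8% at 1 day, without overlap. The difference of 21.2 points had a limma adjusted p of 0.215 and an exact permutation p of 0.0286. In females *Lim3* had 47.3, 33.6, 29.6 and 46.4% at 48hr APF, 54.4, 64.3, 68.5 and 60.7% at 1 day, and 36.4, 31 and 45.2% at 10-12 days. The 1-day lists lay above those of both other stages, by 22.7 points over 48hr APF (SE 8.83, adjusted p = 0.126) and 24.4 points over 10-12 days (SE 9.54, adjusted p = 0.141), and the exact p was 0.0286 for each.

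*Lim1* in females followed the same course, 18.5 points higher at 1 day than at 48hr APF (SE 6.51, limma adjusted p = 0.0912) and 13.8 points lower at 10-12 days than at 1 day (SE 7.04, adjusted p = 0.261). Neither pair of groups overlapped and the exact p was 0.0286 for each. In males *Lim1* stayed at or under 17.1% at every *fru P1* stage and the groups overlapped. In *Awh* the 48hr APF lists had 34.2, 33.7, 40.5 and 48.7% in females and 33.8, 32.4, 51.9 and 56.9% in males, and the 10-12 day lists had 40.1, 14.6 and 36.7% in females and 44.5, 34.2, 60.6 and 47.9% in males. These ranges overlapped those at 1 day in each sex.

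*ap* moved little over the stages, with differences of 0.59 to 6.33 points between 48hr APF and 1 day and of -4.53 to -4.86 between 1 day and 10-12 days. Its lists held 9.9, 28.4, 13.3 and 19.3% at 48hr APF and 13.6, 19.7 and 25.3% at 10-12 days in females. Those of males held 17.7, 29.5, 38.6 and 35.4% and 30.0, 27.2, 20.8 and 26.1%. All of these groups overlapped.

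Counted over the 30 stage tests of the gene body, limma called 1 and had 7 at an unadjusted p under 0.05, and the exact test gave 7 at 0.0286, 5 of them autosomal. limma called 1.51% of all genes between 48hr APF and 1 day in males and 4.88% in females, and 3.39% between 1 day and 10-12 days in females. In the rise from 48hr APF to 1 day, the exact test was passed by 2 of the 4 autosomal genes in males, where 12.6% of long autosomal genes rose, and by 1 in females, where 13.9% did. In the fall to 10-12 days it was passed by 1 in males and 1 in females, where 12.3 and 12.7% of long autosomal genes fell. Of long X-linked genes, 14.4% rose and 6.75% fell in females by that test, as *Lim1* did. None of the 10 differences between 10-12 days and 48hr APF passed either test, with values of -11.3 to 5.39 points. In these 2 comparisons limma called 0.799% of all genes in males and 1.62% in females, and 8.26 and 7.06% of long autosomal genes had an exact p of 0.05 or less.

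The test of whether a sex difference changed with stage or cell type found none for the gene body. Of 20 interaction tests by limma, 0 had an adjusted p of 0.05 or less and 0 an unadjusted p under 0.05, and the lowest adjusted p was 0.713. Of all genes, limma called 0.0369, 0.252 and 0.203% in the 3 stage interactions and 0.0369% in that with cell type. The stage and cell type comparisons share their 1-day *fru P1* lists, so the shared direction of the 5 genes across them is not independent.

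Around the TSS the genes behaved less evenly. Only *Lim1* was called by limma there, lower in males in all 4 sex comparisons. At 48hr APF the window had 38.7, 41.4, 21.8 and 53.3% in females and was listed at 0 in the 4 male lists. In 1-day *fru P1* adults it had 53.8, 44.7, 42.8 and 42.8% in females and 12.7, 11, 12.2 and 8.15% in males. No male list reached a female one. At 10-12 days the female lists were wide apart, at 12.6, 86.1 and 42.0%, while males had 0, 7.35, 0 and 0%. In *elav* females had 80.4, 100, 52.6 and 64.1% and males 14.7, 13.7, 32.5 and 24.0%.

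The differences for *Lim1* in this window were -38.8 (adjusted p = 0.0355), -35.0 (adjusted p = 0.0458), -45.1 (adjusted p = 0.0107) and -53.1 points (adjusted p = 0.00219) by limma, with an exact p of 0.0286 for each. limma called 16.6, 33, 39 and 13.5% of X-linked genes as lower in males in this window, and 0.226, 0.319, 0.911 and 0.0665% of autosomal genes in either direction. Without *fru P1* 10-12 day female replicate 3 the 10-12 day difference was -25.5 points and was no longer called. The 1-day call was lost with the replicate number as a block (adjusted p = 0.0565) and without any 1 of the 8 libraries compared, the 48hr APF call was lost without any 1 of its 8 except female replicate 3, and all 4 calls were lost after the X mean was subtracted. Leaving out single male lists of other groups also lost the 1-day call in some cases, with the difference unchanged at -35.0 points. Within males, the window of *Lim1* was 11 points higher at 1 day than at 48hr APF, 9.16 lower at 10-12 days than at 1 day, and 10.2 higher in *elav* than in *fru P1* (exact p = 0.0286 for each, limma adjusted p = 0.678, 0.703 and 0.72), where 2.38, 2.56 and 2.19% of X-linked genes had such an exact p.

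*ap* had its clearest contrast near the TSS. In 1-day females the window had 3.67, 0, 0 and 0% in *fru P1* and 37.0, 20.9, 42.2 and 23.9% in *elav*. The lists did not overlap, and the difference was 30.1 points (SE 9.96, limma adjusted p = 0.0824, exact p = 0.0286), where 12.9% of autosomal genes of any length had such an exact p in either direction. In 1-day males the same window had 40.1, 10.7, 3.63 and 21.4% in *fru P1* and 9.03, 7.93, 50.1 and 48.7% in *elav*, which overlapped. At 10-12 days females had 9.42, 29.3 and 3.78%, all above the 1-day female lists, by 13.2 points on average (limma adjusted p = 0.435, exact p = 0.0286), where 12.7% of autosomal genes had such an exact p.

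*Lim3* is the autosomal gene whose TSS window differed by sex by the exact test. At 10-12 days it had 52.2, 34.4 and 60.2% in females and 29.7, 7.53, 21.0 and 23.9% in males, a difference of -28.4 points without overlap (SE 12.9, limma adjusted p = 0.224, exact p = 0.0286), where 2.61% of autosomal genes had such an exact p. At 48hr APF the order was the other way, 23.8, 26.2, 0.1 and 29.3% in females and 58.8, 66.7, 27.7 and 23.1% in males, with overlap. The change in the sex difference between these stages was -52.6 points, and limma did not call it (adjusted p = 0.363). Of the 20 interaction tests in this window limma called 0, with 1 at an unadjusted p under 0.05, and over all genes it called 0, 0.0959 and 0.0169% in the stage interactions and 0% in that with cell type. In females the window of *Lim3* rose by 29.1 points from 48hr APF to 10-12 days by the exact test (limma adjusted p = 0.249, exact p = 0.0286), where 4.81% of autosomal genes had such an exact p.

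Over all 31 lists *Awh* had the highest mean TSS coverage of the 5 genes (58.6%), while in the 15 female lists *Lim1* had 51.8% and *Awh* 49.9%. The window of *Awh* reached 100% in a 1-day *fru P1* male list and in 1 *elav* list of each sex. Its values at 48hr APF were 43.3, 10.3, 34.8 and 52.7% in females and 91.6, 48.3, 69.6 and 66.0% in males, a difference of 33.6 points (SE 13.6, limma adjusted p = 0.215, exact p = 0.0571). The lowest male list lay under the highest female list. *tup* had 25.7, 49.6, 44.4 and 26.5% in 1-day *fru P1* females and 60.2, 53.9, 34.3 and 21.9% in males, and no comparison of its window passed either test. Over the 30 stage tests of this window limma called 0, with 1 at an unadjusted p under 0.05 and 4 by the exact test. Of all genes it called 4.74% in males and 9.92% in females between 48hr APF and 1 day, 4.51 and 10.3% between 1 day and 10-12 days, and 2.01 and 2.02% between 48hr APF and 10-12 days. Over the 10 cell type tests it called 0, with 2 at an unadjusted p under 0.05 and 2 by the exact test, where it called 0.158% of all genes in males and 1.93% in females.

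**Figure D4:**
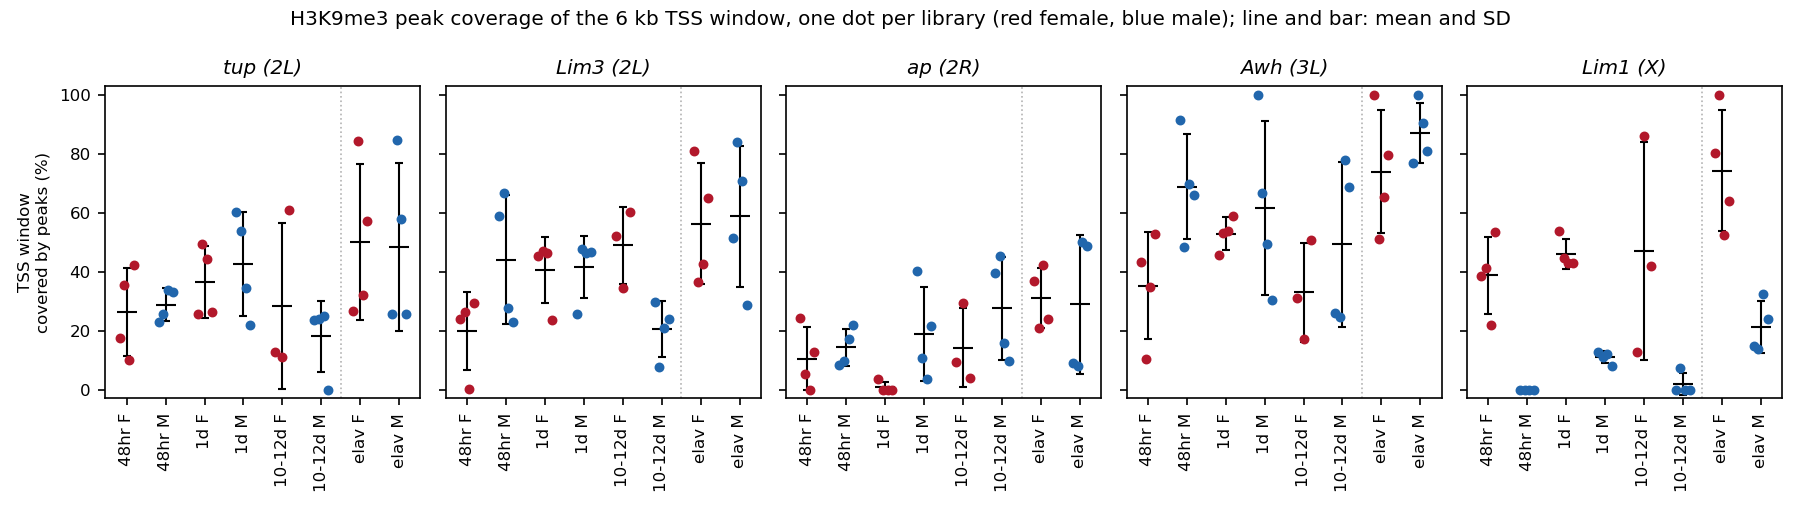
Percent of the 6 kb centred on the TSS that lay under H3K9me3 peaks in each list (vertical axis, percent), laid out as for the gene body. *ap* sits at 0 to 3.67% in 1-day *fru P1* females and at 20.9 to 42.2% in *elav* females, and *Lim1* is at 0 in all 48hr APF males.

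Within the genes, the place of the coverage differed from gene to gene. With each gene divided into 3 equal parts from the TSS, the first part of *ap* had 11.8% ± 10.0 (SD, n = 31), against 37.5% ± 18.4 in the middle and 38.0% ± 18.2 in the last. In *Lim3* and *tup* the middle part was the most covered, at 65.0% ± 21.1 and 60.0% ± 20.3. In *Lim1* the parts had 63.0, 52.6 and 58.4% in females, within their SDs of each other. Exons of *tup* were covered less than its introns, 37.0% against 56.4%, and this held in 27 of 31 lists. Exons of *Lim1* had 40.9% and introns 59.5% in females, lower in 13 of 15 lists. In *Lim3* exons were lower in 20 of 31 lists, in *Awh* in 18 and in *ap* in 12.

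**Figure D5:**
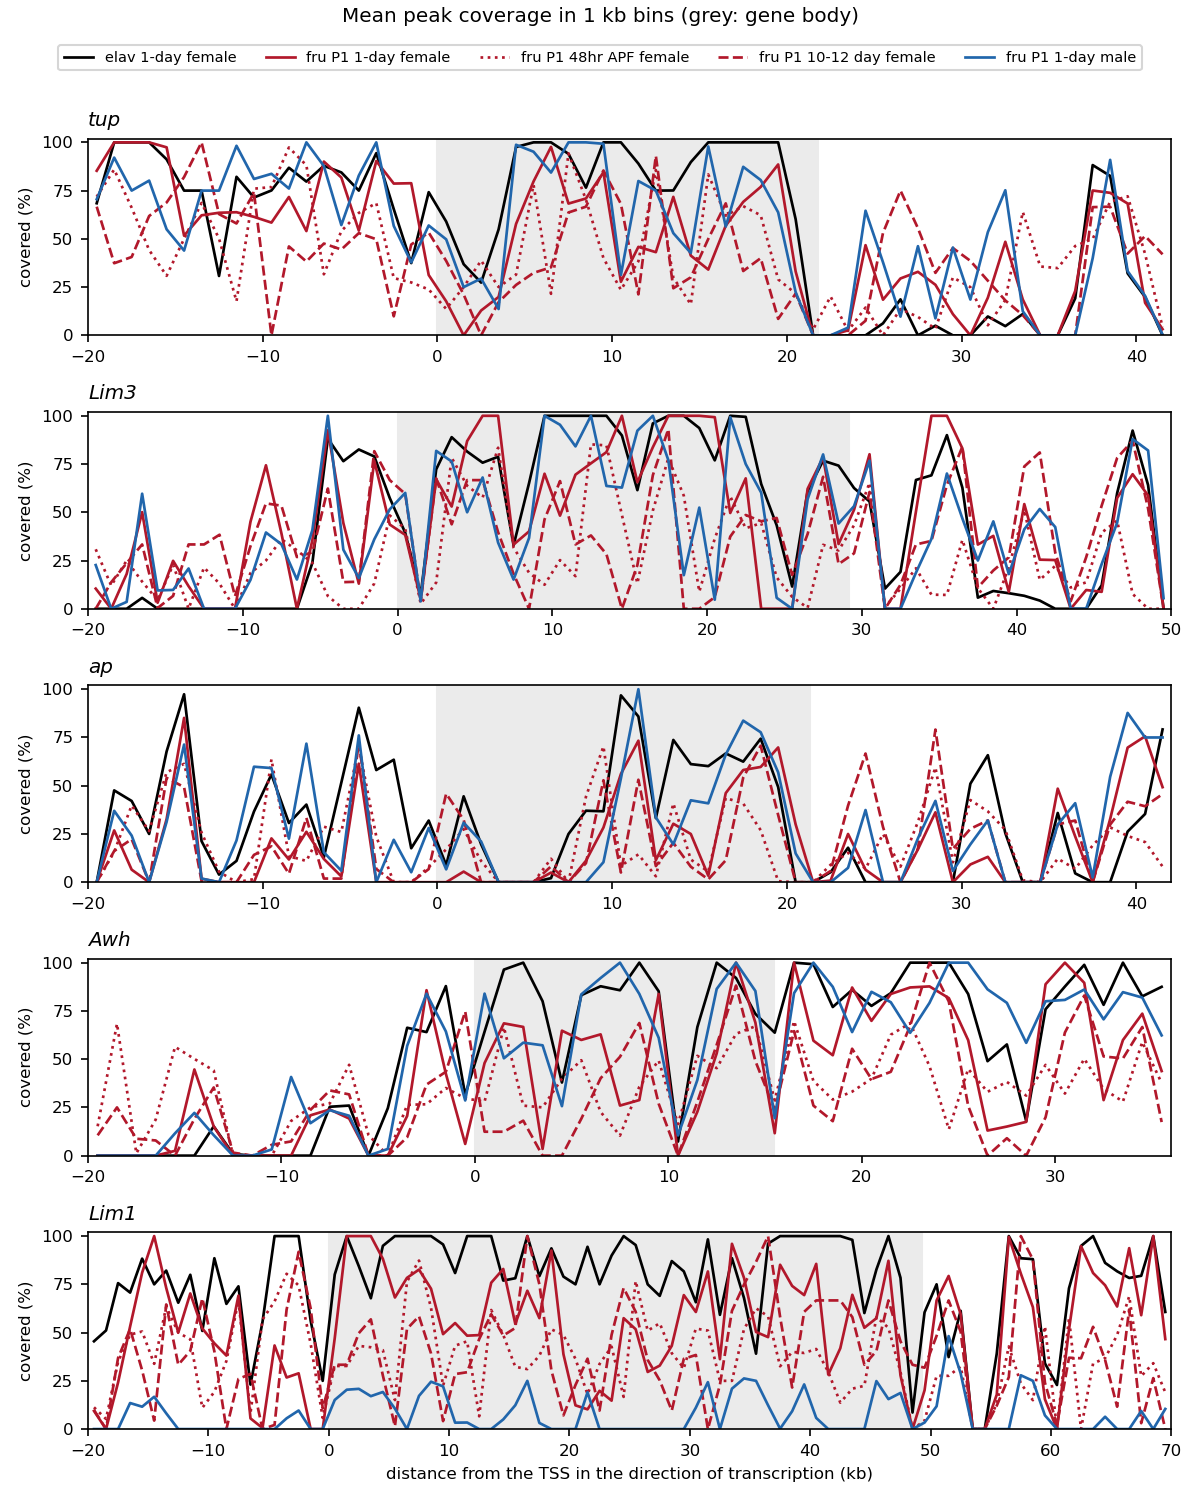
Mean percent of each 1 kb bin under peaks (vertical axis) along each gene and its flanks by distance from the TSS (horizontal axis, kb), for *elav* 1-day females, *fru P1* females at the 3 stages and *fru P1* 1-day males, with the gene body shaded. Coverage is low over the first part of *ap*, at 11.8% over 31 lists, and the male line of *Lim1* stays under the female lines over most of the gene.

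No base of *ap*, *Awh*, *Lim3* or *tup* lay under a peak in all 31 lists. The most shared bases reached 28 lists in *Awh*, at 3L:3859321-3859768 with 64 exonic bases among its 448, and 28 in *Lim3*, over 45 bases. They reached 25 in *tup* and 22 in *ap*, the latter over 72 intronic bases at 2R:5716305-5716376. In *ap* 15.1% of bases were never under a peak, against 3.76% in *tup*, 2.40% in *Lim3* and 0 in *Awh*. *ap* is also the one of the 5 with annotated transposable element insertions in the gene, 8 of them over 11.4% of its length, while 23.0% of autosomal genes of at least 5 kb held at least 1. These insertions are those annotated in dm6, and the lists used unique alignments alone. Whether the insertions hold the bases of *ap* that were never under a peak was not tested.

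The coverage was bounded differently at each locus. In *Awh* the gene body exceeded the 20 kb upstream (20.9%) in 29 of 31 lists, while the 20 kb downstream had 60.8%. *tup* was the mirror image, with 63.2% upstream and 26.4% downstream, and its gene body exceeded the downstream side in 29 lists. *Lim3* stood above both sides, in 30 lists for the 23.0% upstream and in 27 for the 32.0% downstream. *Lim1* in females had 46.0 and 47.4% on its sides, and *ap* had 26.2 and 22.4%, so these 2 genes differed least from their surroundings. The closest genes outside the members had 16.6% (*vlc*, by *ap*), 14.9% (*enc*, by *Awh*), 60.1% (*CG10700*, by *Lim3*) and 15.6% (*CG10602*, 0.259 kb from *tup*). On the upstream side of *tup* the next gene, *ssp3*, lay 35.1 kb away and had 48.7%.

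The peaks behind these values were shallow. Of 930 peaks in the 5 genes over all lists, 89 had p of 0.01 or less, which is 9.57% against 6.59% of all 738735 peaks. A q under 0.05 was reached by 1, in *Lim3* in a 1-day *fru P1* female list, against 0.0891% of all peaks. The file headers state that q values were not calculated, although the column holds values, so these q counts are only what that column gives. The highest fold enrichment over input was 1.93 in *ap*, 2.40 in *Awh*, 2.44 in *Lim1*, 2.2 in *Lim3* and 2.25 in *tup*, and each of these was in an *elav* list. The median fold enrichment of all peaks in a list was also higher in *elav*, at 1.59 to 1.72 against 1.43 to 1.60 in *fru P1*. In *elav* females *Lim1* was covered by fewer and longer peaks than in 1-day *fru P1* females, a median of 6.5 against 13 peaks in a list, the longest of 29347 bp against 8100 bp.

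Of the partners of LIM-homeobox proteins, *Chi* had 5.1 to 37.5% of its gene body covered in the *fru P1* groups and was listed at 0 there in all *elav* lists, and so was the gene body of *Ssdp*, which encodes a protein that binds Chip. Their TSS windows were not all at 0 in *elav*, with 2.75% for *Chi* and 21.1% ± 13.3 (SD, n = 4) for *Ssdp* in males, where *Ssdp* had 9.07% in 1-day *fru P1* males. *Bx*, the X-linked LIM-only gene whose product competes for Chip, had 35.9 to 40.6% of its gene body covered in females and 2.8 to 8.2% in males, and limma called the gene body lower in males in all 4 comparisons (adjusted p = 0.000928, 0.000418, 0.00133 and 0.00856). Of its TSS window limma called the 1-day *fru P1* comparison alone (adjusted p = 0.00763). The related LIM-homeobox genes *Lmx1a* and *CG4328* had 72.3 and 61.2% in the gene body in 1-day *fru P1* females and 85.0 and 69.9% in *elav* females. In males *Lmx1a* had 75.7 and 78.0% and *CG4328* had 75.7 and 60.1%, a median *elav* minus *fru P1* difference of -6.63 points against 10.7 in females. limma called neither gene in 24 gene body tests, with 5 at an unadjusted p under 0.05 and 3 by the exact test, which both passed between 48hr APF and 1 day in males. There 12.6% of autosomal genes of at least 5 kb rose by that test. The remaining pass was lower in males than in females at 48hr APF, where 2.71% of such genes passed in either direction.

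Of 6 other motor neuron factors, *eve*, *exex*, *HGTX*, *vvl*, *zfh1* and *grn*, limma called the gene body of *exex*, the fly HB9 gene, in males. It had 17.3% at 48hr APF, 68.4% at 1 day (difference 51.1, adjusted p = 0.029) and 69.8% at 10-12 days (difference 52.5, adjusted p = 0.036). *HGTX*, the fly Nkx6 gene, fell in females by 42.3 points from 1 day to 10-12 days (adjusted p = 0.0291). limma called 3 of the 72 gene body tests of these genes, with 18 at an unadjusted p under 0.05 and 18 by the exact test. Over all genes limma called 1.51 and 0.799% in the male comparisons of *exex* and 3.39% in the female comparison of *HGTX*. Of all autosomal genes, 1.28 to 11.3% passed the exact test in the 12 comparisons. From 48hr APF to 1 day, 3 of the 6 genes in males and 4 in females rose by the exact test. Of autosomal genes of at least 5 kb, 12.6 and 13.9% did. The median rise of the 6 was 35.3 points in males and 26.4 in females, against 20.7 and 9.61 for the 5 members. *eve*, *exex* and *vvl*, of 1.477, 3.378 and 4.784 kb, are shorter than that class and than the 5 members. These shares and medians are therefore not matched for gene length. In the TSS window limma called 4 of the 72 tests of these genes, all between 48hr APF and 1 day, where it called 4.74% of all genes in males and 9.92% in females. *exex* was higher at 1 day in males (adjusted p = 0.0063) and in females (adjusted p = 0.0249), *eve* was higher in males (adjusted p = 0.0401) and *zfh1* was lower in females (adjusted p = 0.0311). Over the 6 genes the median gene body difference between *elav* and *fru P1* was 12.7 points in females and 14.1 in males, with 0 called by limma, 1 in females and 0 in males at an unadjusted p under 0.05, and 1 by the exact test in each sex. The 7 genes of the neuropeptidergic neurons that need *ap* were *kn*, *eya*, *dimm*, *sqz*, *dac*, *Nplp1* and *FMRFa*. limma called 0 of their 84 gene body tests, with 12 at an unadjusted p under 0.05 and 11 by the exact test, where 1.28 to 11.3% of all autosomal genes passed the exact test in the 12 comparisons, and 2.37 to 29.6% of those of at least 5 kb. In the TSS window limma called 3 of 84, *Nplp1* lower at 1 day than at 48hr APF in males (adjusted p = 0.0442) and *sqz* higher in 10-12 day males than at 1 day (adjusted p = 0.0326) and at 48hr APF (adjusted p = 0.0422). In these male comparisons it called 4.74, 4.51 and 2.01% of all genes. The median gene body difference of the 7 genes between *elav* and *fru P1* was -10.9 points in females and -1.07 in males, with 1 lower by the exact test in each sex and 1 higher in males.

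The genes most like each member in their pattern over lists were found by Spearman correlation among genes of at least 5 kb in the same chromosome class that lay over 50 kb away. They were *fuss* (0.863) and *stw* (0.830) for *ap*, *CG40006* (0.890) and *l(2)41Ab* (0.873) for *Awh*, *ss* (0.900) and *Vmat* (0.890) for *Lim3*, and *Scr* (0.873) and *lncRNA:CR31386* (0.872) for *tup*, over 31 lists and 2915 or 2916 candidates. For *Lim1* over the 15 female lists they were *lncRNA:CR32773* (0.896) and *RunxA* (0.886) among 667. Between the 4 autosomal members the correlations were 0.511 to 0.729 over 31 lists. Over the 15 female lists *Lim1* had 0.896 with *Awh*, 0.843 with *Lim3* and 0.721 with each of *ap* and *tup*. Depth, stage and input are shared by all genes of a list, so these values are a description.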

How the data were processed

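H3K9me3 peak lists of 31 libraries were analysed, and the other libraries of the study were not used here. Per the labels and the file headers, the authors' pipeline ran Trimmomatic, Bowtie2 2.2.5 (dm6, unique alignments) and SAMtools 1.2, and the authors called broad peaks for each library with MACS2 (2.1.0 in the submitters' processing notes, 2.1.1.20160309 in the headers), at a broad p of 0.1. The deposited columns hold the start, end and length of each peak, its pileup (a coverage signal), −log10 p and q values and a fold enrichment ratio over the input. Depth was taken as the tags after filtering that the headers give, and the total depth was not removed from coverage, so the lists' precision is set by depth and input.

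Peaks were intersected with Ensembl release 115 genes (dm6). A gene body ran from its first to its last annotated base, and the TSS window covered 3 kb on each side. Percent coverage was compared with limma 3.58.1 in R 4.3.3 (8 groups, moderated with a mean trend, genes with a peak in at least 4 lists, Benjamini-Hochberg adjustment) and with exact two-sided permutation tests in Python 3.11.15 (not adjusted, 12 comparisons for each gene and window). The coverage count and the exact test were tested on simulated data. The alternatives were stricter peaks, exons, other windows, 2 scalings, a transform, other filters, a replicate block, fits of the compared groups and leaving out each library. The named genes were the 5 members, the fixed lists, the nearest neighbours and the most similar genes. The members and lists were chosen with earlier results of these data known. No p over the list alone was computed. Replicate numbers were those of the sample titles, and for 1-day *fru P1* females the peak names carry other numbers. They did not pair the lists. Sequences were read from the RefSeq copy of the dm6 genome.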

Additional observations from a re-analysis of the deposited data

Results flagged for a closer look

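Of 69 groups of 4 lists checked, 7 held a list far from the other 3, where chance gives about 1 in 20. In the gene body this was *Awh* in *elav* 1-day female replicate 2, at 61.3% against 80.1 to 83.0% in the other lists. The other 6 were in the TSS window. *ap* had 3.67% in *fru P1* 1-day female replicate 1 and 0 in the others. *Lim1* had 53.8% in *fru P1* 1-day female replicate 1, against 42.8 to 44.7%, and 7.35% in *fru P1* 10-12 day male replicate 2, against 0. *Lim3* had 23.7% in *fru P1* 1-day female replicate 4, against 45.3 to 47.0%, and 25.6% in *fru P1* 1-day male replicate 1, against 46.5 to 47.5%. *tup* had 0 in *fru P1* 10-12 day male replicate 4, against 23.5 to 24.9%.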

How the results depend on the processing

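Of 20 sex tests of the gene body limma called 4, all for *Lim1*. The count was 0 with peaks of p of 0.01 or less, 2 with peaks of at least 1.5-fold enrichment, 1 with the 10000 peaks of smallest p, 1 with exons only, 1 after subtraction of the class mean and 0 when only the compared groups were fitted. In the TSS window the count of 4 became 0, 1 and 0 with the same 3 peak choices, 0 with 1 kb on each side, 0 after subtraction of the class mean and 1 with only the compared groups. The stage count of 1 for the gene body became 0 with p of 0.01 or less, 3 with 1.5-fold peaks, 0 with the 10000 peaks, exons, either scaling, the arcsine transform or only the compared groups, 6 among genes of at least 5 kb (added after seeing the data) and 7 by the exact test. The cell type count of 1 became 2 with 1.5-fold peaks, the 10000 peaks, subtraction of the class mean, the arcsine transform or no filter, 3 after division by autosomal coverage, 4 among genes of at least 5 kb, 0 with exons or only the compared groups and 5 by the exact test. In the TSS window the stage count of 0 became 4 and the cell type count of 0 became 2 by the exact test, and the cell type count became 1 with 1.5-fold peaks, all annotated TSSs, subtraction of the class mean or the arcsine transform. The causes were not tested, except that fewer peaks or lists enter some settings.

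Replicate numbers did not pair the lists, since in 0 of 12 comparisons did every same-number correlation exceed 0.1 (range -0.069 to 0.111). The replicate block took the stage and cell type counts of the gene body from 1 to 0 each, and the sex count of the TSS window from 4 to 3. Leaving out each list in turn gave 4 to 4 calls for sex in the gene body, 2 to 4 for sex in the TSS window, 0 to 1 for stage in the gene body, 0 to 2 for cell type in the gene body and 0 to 0 for the rest. Directions reversed for *tup* by sex at 1 day in the gene body (-1.70 with p of 0.01 or less), for *Lim3* by sex at 10-12 days in the TSS window (4.01 with 1.5-fold peaks), for *Lim3* (0.79) and *Lim1* (12.0) from 1 day to 10-12 days in female exons, for *Lim1* in that comparison after division by autosomal coverage (0.11), for *ap* in it over all annotated TSSs (-0.987), and for *Lim3* from 48hr APF to 10-12 days in the female TSS window (-1.16 with p of 0.01 or less, -2.96 with 1.5-fold peaks). Peaks with q under 0.05 were too few for a fit. Peak lists hold only regions past a threshold, so a coverage of 0 says that no peak was called at this depth.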
